A study of Homo sapiens with 3 samples.

Results

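The genes described here are those of the epidermal differentiation complex, a run of gene families on the long arm of human chromosome 1, measured by RNA sequencing in a parental oral squamous cell carcinoma (OSCC) line and in its drug-resistant derivatives. The rule that defines the members uses symbols and no measured value, though it was written with earlier results of these data known. It takes every gene of the count table whose symbol begins with SPRR, LCE or S100A plus a digit, and IVL, LOR, FLG, FLG2, HRNR, RPTN, TCHH and CRNN. It found 53 of 19220 genes: 10 SPRR genes, 18 LCE genes, 17 S100A genes, IVL and LOR, and 6 fused S100 genes (FLG, FLG2, HRNR, RPTN, TCHH and CRNN). All 53 lie on chromosome 1 of GRCh38 within 1.649 Mb by the GENCODE 29 annotation, so the label holds by position.

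The libraries were 1 of CAL27 (genotype given as WT, kept in drug-free medium), 1 of CAL27/5FU (5-fluorouracil resistant, kept in 10 μM 5FU) and 1 of CAL27/OXA (oxaliplatin resistant, kept in 10 μM OXA). All 3 lines grew in high-glucose DMEM with fetal bovine serum. The 5FU-resistant cells were made by raising the drug dose in steps, while the derivation of CAL27/OXA, and whether either line is a clone or a pool, is not given in the sources used here. The sample labels name 1 library a line, and the values below come from these alone, with no replicate error and no test. Both tables hold a second column for each line (3 in all) that no sample label names; whether these are replicate libraries is not stated, and they were not used here. In addition, acquired resistance cannot be told apart from exposure to the drug in the medium.

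In stratified epithelium, keratinocytes that leave the basal layer build a cornified envelope under the plasma membrane. Involucrin (IVL), the small proline-rich proteins (SPRR), loricrin (LOR) and the late cornified envelope proteins (LCE) are crosslinked by transglutaminases into this envelope. The fused S100 proteins, filaggrin among them, join the keratin network to it. The S100A genes encode small calcium-binding proteins: S100A8 and S100A9 form the antimicrobial protein calprotectin, S100A7 is psoriasin, and S100A10 and S100A11 are partners of annexins. Squamous carcinoma cells that keep some differentiation often express part of this set.

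The promoters of 49 of the 53 genes were found in RefSeq (GRCh38.p14), each from 250 bases before to 50 bases after the transcription start. The genes whose counts set the results below are shown here, since the IVL and most SPRR promoters hold letters that most S100A and all LCE promoters found lack. The window of IVL is chr1:152908296-152908595 on the plus strand, that of SPRR1A chr1:152983831-152984130 on the plus strand, that of SPRR1B chr1:153030953-153031252 on the plus strand and that of SPRR2A chr1:153057463-153057762 on the minus strand. The window of S100A7 is chr1:153460602-153460901 on the minus strand, that of S100A7A chr1:153416270-153416569 on the plus strand, that of S100A9 chr1:153357604-153357903 on the plus strand and that of S100A2 chr1:153565795-153566094 on the minus strand. Each is printed 5′ to 3′ on the strand of its gene, with matches to TGANTCA, the motif bound by AP-1 (dimers of FOS and JUN proteins), in capitals on either strand. The TATA box, whose letters follow in the next paragraph, is in capitals too, and a match to one motif cannot overlap a match to the other.
IVL: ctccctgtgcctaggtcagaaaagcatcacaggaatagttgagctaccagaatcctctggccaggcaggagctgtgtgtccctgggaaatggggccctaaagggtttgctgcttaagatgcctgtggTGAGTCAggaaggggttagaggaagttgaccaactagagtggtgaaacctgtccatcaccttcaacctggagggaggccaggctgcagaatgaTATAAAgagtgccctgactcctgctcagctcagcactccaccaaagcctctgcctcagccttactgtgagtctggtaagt
SPRR1A: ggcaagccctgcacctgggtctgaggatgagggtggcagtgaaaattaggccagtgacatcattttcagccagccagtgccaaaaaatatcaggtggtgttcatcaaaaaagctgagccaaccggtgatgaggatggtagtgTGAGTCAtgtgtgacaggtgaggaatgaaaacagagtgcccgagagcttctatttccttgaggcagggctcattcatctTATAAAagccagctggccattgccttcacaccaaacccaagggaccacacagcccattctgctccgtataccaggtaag
SPRR1B: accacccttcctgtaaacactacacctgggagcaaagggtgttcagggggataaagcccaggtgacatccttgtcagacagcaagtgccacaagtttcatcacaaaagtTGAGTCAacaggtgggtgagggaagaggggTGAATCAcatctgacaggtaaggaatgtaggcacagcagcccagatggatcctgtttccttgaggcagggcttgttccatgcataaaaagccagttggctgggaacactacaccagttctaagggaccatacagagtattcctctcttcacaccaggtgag
SPRR2A: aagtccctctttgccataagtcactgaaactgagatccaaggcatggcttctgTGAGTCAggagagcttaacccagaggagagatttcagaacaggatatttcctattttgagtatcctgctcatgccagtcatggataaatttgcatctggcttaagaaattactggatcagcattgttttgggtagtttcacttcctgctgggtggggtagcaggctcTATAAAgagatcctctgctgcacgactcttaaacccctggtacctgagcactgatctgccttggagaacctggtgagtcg
S100A7: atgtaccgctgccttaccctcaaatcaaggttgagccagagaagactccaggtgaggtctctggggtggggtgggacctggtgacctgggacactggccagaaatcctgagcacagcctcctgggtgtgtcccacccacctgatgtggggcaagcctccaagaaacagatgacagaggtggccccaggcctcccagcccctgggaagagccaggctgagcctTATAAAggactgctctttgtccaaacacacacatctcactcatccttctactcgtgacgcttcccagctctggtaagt
S100A7A: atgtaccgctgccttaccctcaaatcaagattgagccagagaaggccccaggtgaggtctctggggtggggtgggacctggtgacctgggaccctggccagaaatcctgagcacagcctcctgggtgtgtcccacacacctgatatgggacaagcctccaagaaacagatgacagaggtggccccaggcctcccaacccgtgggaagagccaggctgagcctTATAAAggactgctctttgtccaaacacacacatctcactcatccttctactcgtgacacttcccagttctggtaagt
S100A9: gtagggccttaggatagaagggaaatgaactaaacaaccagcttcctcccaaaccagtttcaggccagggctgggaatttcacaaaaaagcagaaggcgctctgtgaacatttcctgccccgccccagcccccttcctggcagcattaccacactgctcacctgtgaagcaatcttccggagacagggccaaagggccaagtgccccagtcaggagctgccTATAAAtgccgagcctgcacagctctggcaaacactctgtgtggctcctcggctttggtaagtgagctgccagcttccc
S100A2: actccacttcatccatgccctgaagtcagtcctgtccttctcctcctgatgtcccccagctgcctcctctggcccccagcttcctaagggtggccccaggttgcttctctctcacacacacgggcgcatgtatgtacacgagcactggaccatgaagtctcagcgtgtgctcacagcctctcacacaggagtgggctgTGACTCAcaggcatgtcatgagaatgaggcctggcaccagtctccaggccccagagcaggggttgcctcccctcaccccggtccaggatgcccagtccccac

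The AP-1 letters lay in the promoters of 16 of 49 members (32.7%), against 7.71% of all 35116 promoters of this length. They were in 6 of 8 SPRR promoters, in those of IVL and LOR, in 5 of 6 fused S100 promoters, in 3 of 16 S100A promoters (S100A2, S100A3 and S100A12) and in 0 of 17 LCE promoters. The match began at -123 from the start in IVL, at -108 in SPRR1A, at -141 and -111 in SPRR1B, at -197 in SPRR2A and at -52 in S100A2. TATAAA stood in 26 of 49 promoters (53.1%) against 11.5% of all, at -30 in IVL and SPRR2A and -29 in SPRR1A. TTGCNNAA, a C/EBP motif searched on both strands and not capitalised, stood in 9 of 49 (18.4%) against 10.5%. The S100A7 and S100A7A windows held the same base at 289 of 300 positions (96.3%). These matches describe letters in a window and not bound sites, and a window without them says nothing about the factor.

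The count table summed to 41786182 counts in the parental line, 37297713 in CAL27/5FU and 43455488 in CAL27/OXA. Counts were scaled by edgeR's TMM factors and given as CPM, the count divided by the scaled library size and set to a common depth, and a floor of 3 counts equalled 0.0675 to 0.0770 CPM. Genes averaging 10 counts or more across the libraries entered the comparisons (13676 genes, 26 of them members). The call of higher or lower required that the log2 ratio of CPM, with a prior count of 2, be past 2-fold. Each ratio carries an exact 95% interval that covers counting error only. The passing members were 5 SPRR genes, LCE3D, IVL, 3 fused S100 genes and 16 S100A genes. Of the other 27, 13 were at 0 counts in every library, 6 reached at most 3 counts, and 8 lay above the floor with no count over 13. Of the 26, 8 had fewer than 10 counts in at least 1 library and passed the filter on the strength of the others, so the counts of calls below describe the members and support nothing on their own.

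The set as a whole took a smaller share of the transcriptome in both resistant lines. The 53 genes held 0.441% of all counts in the parental line (exact binomial 95% interval 0.439 to 0.443), 0.208% in CAL27/5FU (0.206 to 0.209) and 0.227% in CAL27/OXA (0.226 to 0.229). S100A genes made up 99.4%, 99.7% and 99.6% of the members' counts in the same order, so this share is in effect theirs. The makeup of that share differed mainly in CAL27/OXA. S100A9 alone was 33.8% of the members' counts in the parental line, 30.3% in CAL27/5FU and 5.04% in CAL27/OXA, whereas S100A2 was 20.0%, 19.0% and 42.6%. In these bulk samples, fewer cells of a type and less RNA per cell cannot be told apart.

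**Figure D1:**
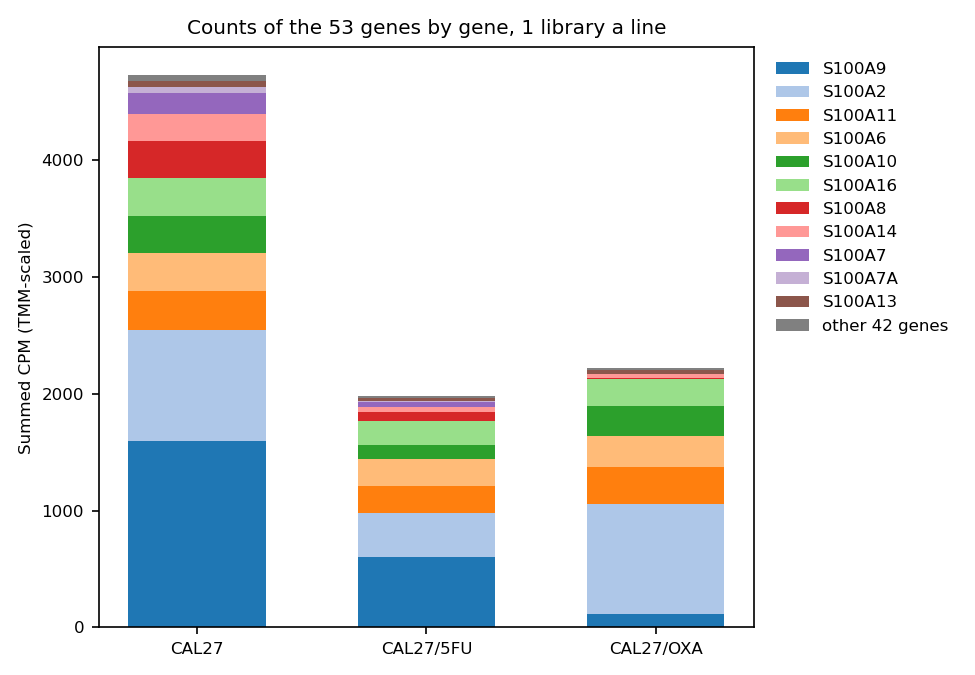
Summed level of the 53 genes (TMM-scaled CPM, linear axis from 0) in each library, stacked by gene, with 42 genes pooled in grey. From left to right the bars reach 4730, 1979 and 2223 CPM, and the S100A9 block shrinks to 112 CPM in CAL27/OXA while that of S100A2 stands at 948.

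Against CAL27, no member was called higher in CAL27/5FU, where 8.46% of all tested genes were, and 17 of 26 were called lower, where 6.72% of all tested genes were. In CAL27/OXA against CAL27, 0 members were higher against 6.54% of all genes, and 14 were lower against 9.28%. The median log2 ratio of the 26 was -1.43 in CAL27/5FU and -1.64 in CAL27/OXA, beside 0.00 and 0.01 over all tested genes. With the filter raised to a mean of 50 counts, 12 of the 17 members left were lower in CAL27/5FU (5.37% of all genes kept) and 10 in CAL27/OXA (7.79%). Both comparisons use the same CAL27 library. The genes called lower in both were IVL, SPRR1A, SPRR1B, SPRR2A, SPRR2E, S100A3, S100A7, S100A7A, S100A8, S100A9, S100A12 and S100A14. LCE3D, SPRR2D, S100A2, S100A10 and S100A13 were called lower in CAL27/5FU alone, and FLG and S100A4 in CAL27/OXA alone.

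CAL27/OXA against CAL27/5FU, which leaves the parental library out, split the members. In this comparison 9 members were higher (4.18% of all tested genes) and 7 were lower (8.38%), with a median log2 ratio of 0.29 beside 0.01 for all genes. The higher ones were IVL, LCE3D, the 5 tested SPRR genes, S100A2 and S100A10. The lower ones were S100A4, S100A7, S100A7A, S100A8, S100A9, S100A12 and FLG. For 5 of the 9 and 6 of the 7 the whole counting interval lay past 2-fold. The calls of SPRR1A, SPRR2A and SPRR2E as higher rest on 6 to 8 counts against 0, or at least 1.76-fold, 2.35-fold and 1.76-fold with the floor of 3 counts. On deposited FPKM values with a pseudocount of 1, IVL, the 5 tested SPRR genes and FLG were not past 2-fold in this comparison. All of these but SPRR2D were under 1 FPKM in both lines, so for them this outcome was fixed in advance. Among the tested members, IVL, LCE3D and the SPRR genes thus had their lowest counts in CAL27/5FU, and the calprotectin and psoriasin genes theirs in CAL27/OXA.

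**Figure D2:**
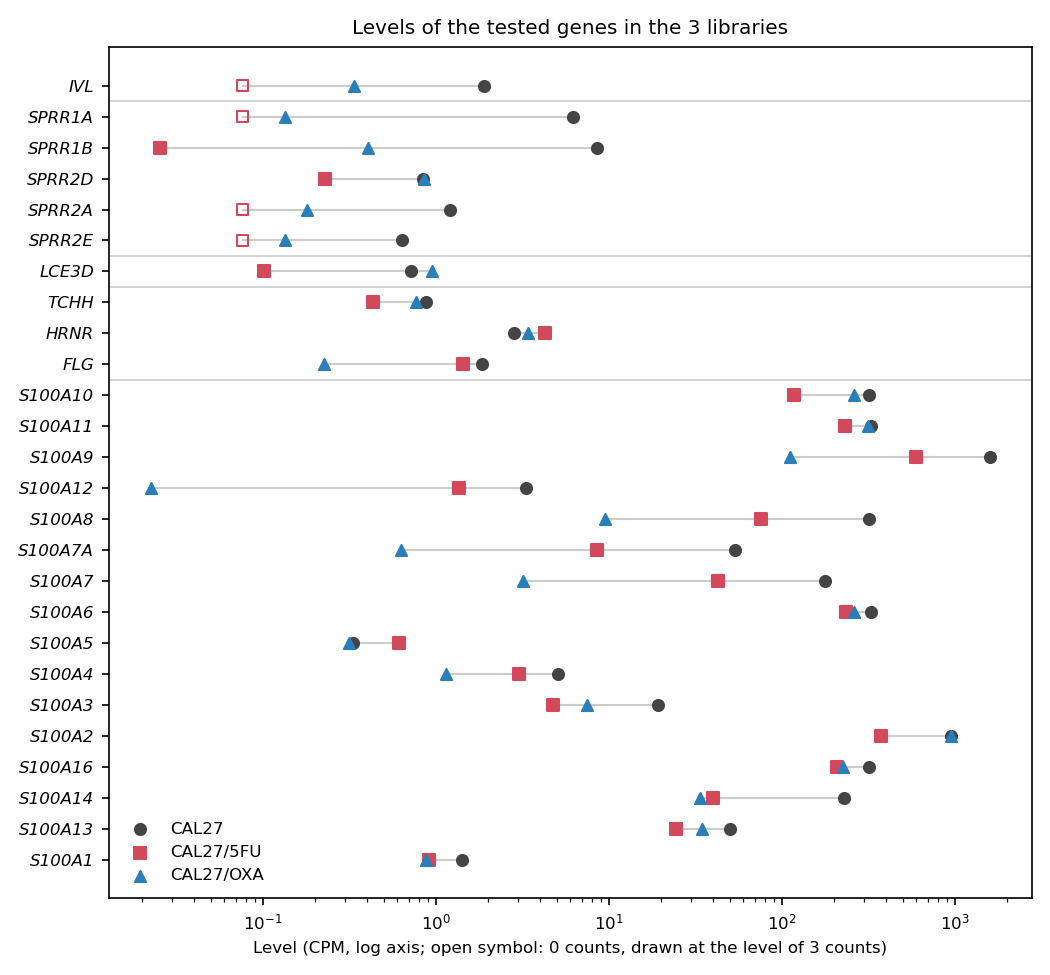
Level of each of the 26 tested members in the 3 libraries (TMM-scaled CPM, log axis), grouped from top to bottom as IVL, SPRR, LCE, fused S100 and S100A. Open symbols mark 0 counts and are drawn at the level of 3 counts. In the IVL, SPRR and LCE rows the lowest symbol is CAL27/5FU, and from S100A9 to S100A7 it is CAL27/OXA.

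Among IVL, LOR, the SPRR genes and the LCE genes, the paired SPRR1 genes were the most abundant by count in CAL27 and showed the widest gaps. SPRR1A and SPRR1B encode cornifins, small proline-rich proteins crosslinked early into the envelope. SPRR1A had 243 counts in the parental line, 0 in CAL27/5FU and 6 in CAL27/OXA. It was at least 81.4-fold lower in CAL27/5FU, taking the floor of 3 counts in that library, and 46.2-fold lower in CAL27/OXA, with a log2 ratio of -5.09 (interval -6.99 to -4.39). SPRR1B had 331, 1 and 18 counts. Its log2 ratio was -6.84 in CAL27/5FU (interval -13.69 to -5.89) and -4.23 in CAL27/OXA (-5.16 to -3.71), and CAL27/OXA stood above CAL27/5FU by 2.61 (1.32 to 9.37). Both genes were thus near the floor in CAL27/5FU and a little above it in CAL27/OXA. The windows of 50 bases they share were 11.3% of SPRR1A and 4.38% of SPRR1B. Their summed counts, which do not depend on how reads were split between the pair, were 574, 1 and 24.

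IVL encodes involucrin, the scaffold on which the envelope is assembled. IVL had 74 counts in the parental line, 0 in CAL27/5FU and 15 in CAL27/OXA. It was at least 24.8-fold lower in CAL27/5FU and 5.63-fold lower in CAL27/OXA (log2 ratio -2.33, interval -3.40 to -1.68), and at least 4.41-fold higher in CAL27/OXA than in CAL27/5FU. On deposited FPKM values with a pseudocount of 1, IVL was no longer past 2-fold in any of these comparisons. Per length its level was low even in the parental line, at 0.829, 0 and 0.161 FPKM. FPKM is a unit that divides fragments by gene length and by depth. Under 1 FPKM in every library, IVL could not be past 2-fold with that pseudocount, so its loss was fixed in advance. Loricrin (LOR), the main envelope protein of the epidermis, had 0 counts in all 3 libraries, which allows at most 3 counts in each.

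The SPRR2 genes are near copies of each other, so their separate counts are uncertain. Of their 50-base windows, 8.29% to 32.7% recur in another annotated gene whose symbol fits the rule, SPRR2C outside the set included. SPRR2A had 47, 0 and 8 counts in CAL27, CAL27/5FU and CAL27/OXA, and SPRR2E had 25, 0 and 6. In CAL27/5FU, SPRR2A was at least 15.7-fold and SPRR2E at least 8.37-fold lower than in CAL27, and in CAL27/OXA they were 6.70-fold and 4.75-fold lower. With FPKM values and a pseudocount of 1, SPRR2E lost its calls against CAL27 in both resistant lines and SPRR2D its call in CAL27/5FU. SPRR2A, SPRR2D and SPRR2E then also lost their calls in CAL27/OXA against CAL27/5FU. For SPRR2E, and for SPRR2A in the last comparison, levels under 1 FPKM fixed this loss in advance. SPRR2D went another way, with 33 counts in the parental line, 9 in CAL27/5FU and 38 in CAL27/OXA. Its log2 ratio was -1.68 in CAL27/5FU (-3.13 to -0.79) and 0.01 in CAL27/OXA (-0.70 to 0.73). Summed over the 6 listed SPRR2 genes, which does not depend on how reads were split among them but would still lack reads dropped for matching several genes, the counts were 119, 10 and 53, with a log2 ratio of -3.35 (-4.68 to -2.65) in CAL27/5FU and -1.32 (-1.85 to -0.88) in CAL27/OXA. The sum was 4.67-fold higher in CAL27/OXA than in CAL27/5FU. SPRR2G (13, 0 and 0 counts), SPRR3 (9, 2 and 0) and SPRR4 (4, 0 and 0) were too low to compare but had their counts mainly in CAL27; SPRR2B and SPRR2F stayed at 1 count or fewer. All 10 SPRR genes summed to 706, 13 and 77 counts, 54.6-fold lower in CAL27/5FU (log2 interval -6.69 to -4.99) and 10.5-fold lower in CAL27/OXA (-3.74 to -3.05).

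The LCE genes, which encode late envelope proteins of the outermost layers, were close to silent in all 3 lines. LCE3D was the only one to pass the filter, with 28 counts in the parental line, 4 in CAL27/5FU and 42 in CAL27/OXA. Its log2 ratio was -2.34 in CAL27/5FU (-4.79 to -1.30) and 0.37 in CAL27/OXA (-0.33 to 1.14), an interval that includes 0, and CAL27/OXA was above CAL27/5FU by 2.72 (1.75 to 5.15). A further 5 LCE genes exceeded the floor in some library: LCE1C (0, 0 and 6 counts), LCE1E (2, 0 and 10), LCE1F (4, 0 and 6), LCE3E (6, 0 and 0) and LCE5A (2, 2 and 6). The remaining 12 had at most 3 counts. The same order held without LCE3D, since the other 17 genes summed to 16, 2 and 29 counts. That sum was 8.52-fold higher in CAL27/OXA than in CAL27/5FU (log2 interval 1.69 to 6.79), on few counts, and in CAL27/OXA against CAL27 its interval of -0.26 to 1.65 included 0.

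The fused S100 genes had few counts for their long transcripts. FLG encodes profilaggrin, which is cut into filaggrin and bundles keratin filaments. FLG had 72 counts in the parental line, 56 in CAL27/5FU and 10 in CAL27/OXA, so it was low in CAL27/OXA alone. The log2 ratio was -0.36 in CAL27/5FU (-0.90 to 0.15) and -2.79 in CAL27/OXA (-4.16 to -2.08). FLG was not past 2-fold in CAL27/OXA, against either other line, on FPKM values with a pseudocount of 0.1 or 1. With 1 this was fixed in advance, since FLG stood at 0.135, 0.118 and 0.018 FPKM in the 3 lines. Hornerin (HRNR), a filaggrin relative, had 110, 168 and 152 counts and ratios of 0.60 (0.25 to 0.96) and 0.27 (-0.09 to 0.64). Trichohyalin (TCHH), known from the hair follicle, had 34, 17 and 34 counts and ratios of -0.93 (-1.94 to -0.13) and -0.18 (-0.92 to 0.54). Neither gene was called in any comparison. FLG and HRNR overlap the antisense gene FLG-AS1, and since the strand setting of the counting is not given, reads of the pair cannot be told apart. FLG2 (3, 0 and 0 counts), RPTN (0, 2 and 0) and CRNN (0 in all) were not measurable.

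**Figure D3:**
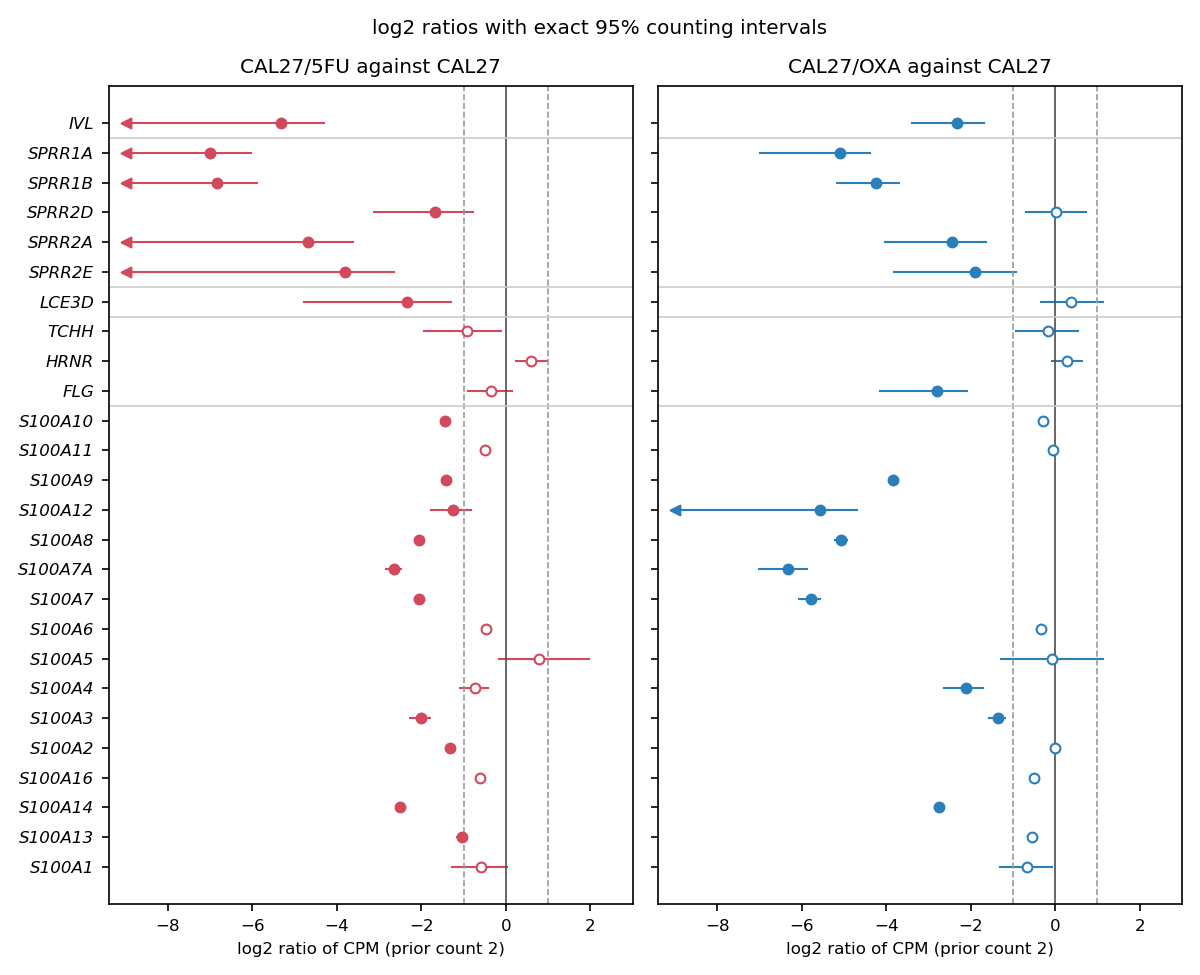
log2 ratio of CPM (prior count 2) of CAL27/5FU and of CAL27/OXA against CAL27 for each tested member, with exact 95% counting intervals as lines, arrowheads where the interval runs past the axis, and dashed lines at 2-fold. Filled points are past 2-fold. No filled point lies to the right of 0, with 17 filled on the left panel and 14 on the right.

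S100A8 and S100A9 are the subunits of calprotectin, and S100A9 was the member with the widest difference in counts between the libraries. Per length, S100A9 was at 2583 FPKM in the parental line, 1089 in CAL27/5FU and 199 in CAL27/OXA, and its place among all listed genes by FPKM went from 6 to 22 and 294. S100A8 was at 585, 157 and 19.1 FPKM, at places 94, 386 and 4269. Both genes kept the order CAL27, CAL27/5FU, CAL27/OXA. S100A9 had 62285, 23448 and 4980 counts, and log2 ratios of CPM of -1.42 (-1.44 to -1.39) in CAL27/5FU and -3.83 (-3.88 to -3.79) in CAL27/OXA. S100A8 had 12401, 2974 and 420 counts, and ratios of -2.07 (-2.13 to -2.01) and -5.07 (-5.22 to -4.93). The direct ratio of CAL27/OXA to CAL27/5FU was -2.42 for S100A9 and -3.00 for S100A8.

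The genes next to them in the complex followed the same order. S100A12 encodes calgranulin C, a relative of calprotectin, and had 129, 53 and 1 counts. Its log2 ratio was -1.26 in CAL27/5FU (-1.78 to -0.82) and -5.55 in CAL27/OXA (-12.52 to -4.70). S100A7 (psoriasin) had 6970 counts in the parental line, 1673 in CAL27/5FU and 142 in CAL27/OXA, with ratios of -2.06 (-2.14 to -1.99) and -5.79 (-6.06 to -5.57). Its near copy S100A7A (koebnerisin) had 2103, 335 and 28 counts, with ratios of -2.65 (-2.83 to -2.49) and -6.31 (-7.01 to -5.88). Of the S100A7 transcript, 14.2% of 50-base windows also occur in S100A7A, so part of either count may belong to the other. Summed over S100A7, S100A7A, S100A8, S100A9 and S100A12, a group formed after the values were seen, the counts were 83888, 28483 and 5571, or 2.96-fold lower in CAL27/5FU and 17.2-fold lower in CAL27/OXA than in CAL27.

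S100A8, S100A9 and S100A12 are also abundant in myeloid cells, so the markers of other cells were read in the same libraries. PTPRC, which marks leukocytes, had 2, 0 and 0 counts and LYZ, of myeloid cells, had 2, 5 and 0, at or near 0 in each. Other myeloid markers were detected: CD14 had 637, 1290 and 341 counts, and ITGAM had 176, 27 and 38, so ITGAM was lower in both resistant lines (log2 ratios -2.63 and -2.34) as S100A8 and S100A9 were. Of the 14 markers of leukocytes, fibroblasts and endothelium, 1, 2 and 3 were at 0 in the 3 libraries and the summed counts were 5657, 5343 and 7838. CD68, a lysosomal gene that carcinoma cells can express too, gave 3143, 1827 and 5055 of them. Of the 9 markers tested, 4 were higher and 1 lower in CAL27/5FU, against 8.46% and 6.72% of all tested genes. In CAL27/OXA, 3 were higher and 2 lower, against 6.54% and 9.28%. The fibroblast genes differed among themselves, with LUM at 120, 414 and 877 counts, COL1A1 at 1387, 1068 and 1050 and COL3A1 at 0 in all, and the endothelial gene CDH5 had 43, 338 and 163. The part of other cells in the members' levels was not tested.

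The other S100A genes did not share 1 pattern. S100A14, an epithelial S100 protein at the plasma membrane, was about equally low in both resistant lines, with 8886, 1576 and 1500 counts and log2 ratios of -2.50 (-2.58 to -2.42) and -2.75 (-2.84 to -2.68). S100A3, known from the hair cuticle, had 751, 186 and 331 counts and ratios of -2.01 (-2.26 to -1.79) and -1.37 (-1.56 to -1.18). It stood higher in CAL27/OXA than in CAL27/5FU by 0.64 (0.39 to 0.92), within 2-fold. S100A4 (metastasin), a gene tied to cell motility, had 199, 119 and 51 counts and was called in CAL27/OXA alone, at -2.11 (-2.63 to -1.70) beside -0.74 (-1.09 to -0.41) in CAL27/5FU. S100A3 and S100A4 overlap on the same strand, and reads of the shared stretch could belong to either.

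S100A2, S100A10 and S100A13 were lower in CAL27/5FU and within 2-fold of the parental line in CAL27/OXA. S100A2, a nuclear S100 protein of basal keratinocytes and a target of p63, had 36866, 14738 and 42114 counts. Its log2 ratio was -1.33 (-1.36 to -1.30) in CAL27/5FU and 0.00 (-0.02 to 0.02) in CAL27/OXA. At 1006 FPKM it was the most abundant member per length in CAL27/OXA, at place 38 among all genes, while S100A9 held that rank among members in the other lines. S100A10, the p11 partner of annexin A2, had 12504, 4593 and 11597 counts and ratios of -1.45 (-1.50 to -1.40) and -0.30 (-0.33 to -0.26). S100A13, which takes part in non-classical secretion, had 1966, 954 and 1527 counts and ratios of -1.05 (-1.16 to -0.94) and -0.55 (-0.65 to -0.46). The call for S100A13 was lost when counts were scaled by their totals, and the gene overlaps S100A1 on the opposite strand.

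The rest of the family stayed within 2-fold in all 3 comparisons. S100A6 (calcyclin), S100A11 (calgizzarin) and S100A16 are broadly expressed and had 8113 to 14022 counts in every library. Their log2 ratios lay between -0.62 and -0.48 in CAL27/5FU and between -0.50 and -0.06 in CAL27/OXA. S100A1 (55, 36 and 39 counts) and S100A5 (13, 24 and 14 counts) were low, and S100A7L2 was at 0 throughout. Leaving out the 5 genes from S100A9 to S100A7, the other 12 S100A genes summed to 99335, 48727 and 92830 counts, 2.05-fold lower than CAL27 in CAL27/5FU and 1.22-fold lower in CAL27/OXA.

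The order of the genes along the chromosome was then compared with the values. In chromosome order the 7 tested genes from PGLYRP3 to S100A7 were lower in both resistant lines, and each was more than 2-fold lower again in CAL27/OXA than in CAL27/5FU; this run was picked after its values were seen. It holds PGLYRP3 and PGLYRP4, which are no members and encode peptidoglycan recognition proteins that act against bacteria. PGLYRP3 had 115, 22 and 4 counts, with log2 ratios of -2.30 (-3.12 to -1.73) and -4.43 (-6.94 to -3.64). PGLYRP4 had 1037, 297 and 111 counts, with ratios of -1.80 and -3.39 (-3.71 to -3.13). These were the only 2 of the 9 listed further genes of the complex to pass the filter.

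Of the 10 tested genes that follow the last member on the chromosome, 1 was lower in each resistant line, NPR1 with 41, 0 and 0 counts, and the median log2 ratios were -0.29 and -0.16. Within the complex itself, S100A6, S100A11, S100A16, TCHH and HRNR were interspersed with the lower genes and were not called.

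**Figure D4:**
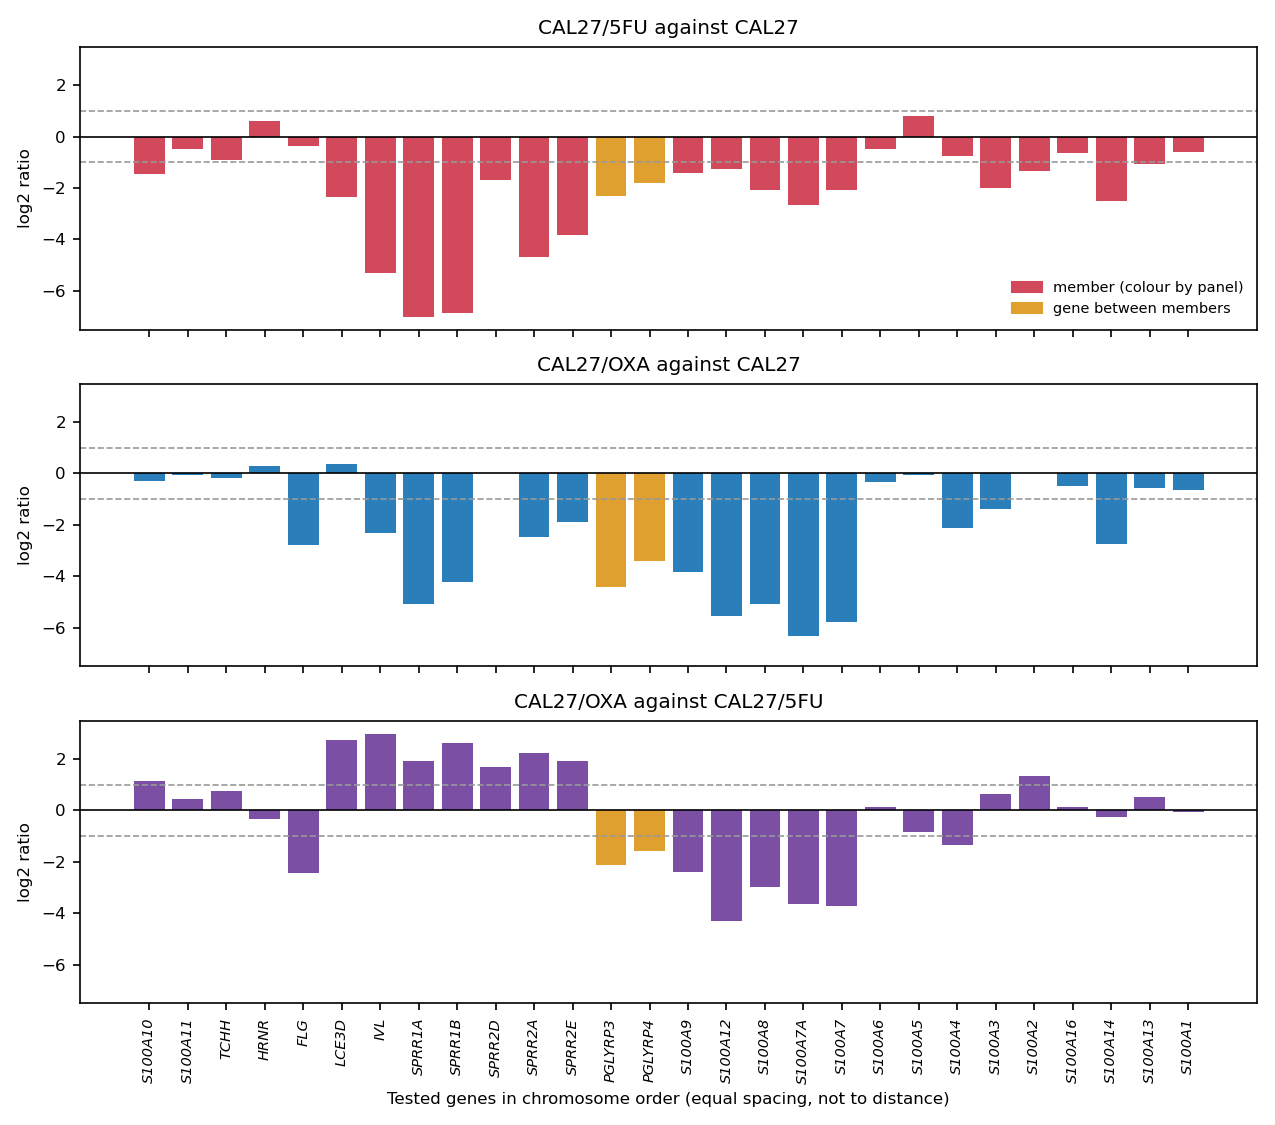
log2 ratio of CPM in chromosome order for the tested members (coloured) and the 2 tested genes between them (orange), in the 3 comparisons, with dashed lines at 2-fold and equal spacing in place of distance. In the bottom panel the genes from LCE3D to SPRR2E stand above 0 and those from PGLYRP3 to S100A7 below -1.

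Genes of the same programme at other loci were counted by lists. Of 45 genes of the cornified envelope and late differentiation elsewhere in the genome, 37 were tested. In CAL27/5FU, 19 were lower and 3 higher (median log2 ratio -1.07), against 6.72% and 8.46% of all tested genes. In CAL27/OXA, 22 were lower and 1 higher (median -1.54), against 9.28% and 6.54%. TGM1, the transglutaminase that crosslinks the envelope, had 710, 137 and 165 counts, with ratios of -2.36 and -2.28. PI3 (elafin), an inhibitor of elastase that transglutaminase also fixes into the envelope, had 1845, 204 and 55 counts, with ratios of -3.17 and -5.20. CSTA (cystatin A), another envelope precursor, had 2874, 622 and 2140 counts and was lower in CAL27/5FU only, at -2.21 against -0.61. The exceptions in CAL27/5FU were the keratin gene KRT80 (1.30), the sciellin gene SCEL (1.41) and the serpin gene SERPINB4 (1.05), and in CAL27/OXA the lipoxygenase gene ALOXE3 (1.56). The 12 genes listed for basal keratinocytes include the activation keratins KRT6A, KRT6B and KRT16. Of the 12, 8 were lower in CAL27/5FU (6.72% of all tested genes) and 7 in CAL27/OXA (9.28%), with 0 higher. Their medians were -1.67 and -2.19. The 7 were all keratins, while ITGA6, ITGB4, COL17A1, DST and CAV1 were within 2-fold in CAL27/OXA. The 4 listed S100 genes outside the complex had at most 6 counts and none passed the filter.

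Regulators of squamous differentiation were counted in the same way. Of 30 tested, 16 were lower and 2 higher in CAL27/5FU (median -1.06), against 6.72% and 8.46% of all tested genes. In CAL27/OXA, 13 were lower and 4 higher (median -0.82), against 9.28% and 6.54%. ZNF750, which switches on late epidermal genes downstream of p63, had 759, 77 and 82 counts, with log2 ratios of -3.28 and -3.37. GRHL1, a grainyhead factor of the upper layers, had 3526, 872 and 382 counts, with ratios of -2.02 and -3.39. TP63, the gene of p63, was lower in CAL27/5FU at -1.28 (-1.32 to -1.25) and stood at 0.13 (0.10 to 0.15) in CAL27/OXA, from 23645, 9759 and 29498 counts. FOSL1, which encodes the AP-1 subunit FRA1, was higher in both lines, at 1.57 (1.51 to 1.63) and 2.72 (2.66 to 2.78), from 2805, 8377 and 21063 counts. JUN was higher in both lines too, at 0.44 and 1.09, past 2-fold in CAL27/OXA only. The other tested FOS and JUN genes had negative ratios in both lines. FOS stood at -1.04 and -1.19, FOSL2 at -0.85 and -1.24, JUNB at -0.28 and -0.70, and JUND at -0.57 and -0.52. KLF4 stayed within 2-fold at -0.12 and -0.20. The part of any factor in the members' levels was not tested.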

How the data were processed

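Total RNA was extracted with TRIzol, and libraries were made with the NEBNext Ultra RNA kit, 1 each for CAL27, CAL27/5FU and CAL27/OXA. The submitters' processing notes name CASAVA 1.8, HISAT2 2.0.5 and GRCh38, with no roles given; the counting tool, annotation and strand setting are not given in the sources used here. The authors deposited read counts per gene symbol and FPKM values in 2 tables. Each table also holds a second column for each line, 3 in all, which no sample label names; they may or may not be replicates and were not used.

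The deposited counts were scaled with TMM factors (edgeR 4.0.16, R 4.3.3). Genes averaging 10 counts or more were kept, log2 ratios had a prior count of 2 and a 2-fold threshold, and exact Clopper-Pearson 95% intervals came from the pair of counts (scipy 1.17.1). Intervals and floors cover counting error only, since PCR copies were not separated. The deposited FPKM values served for levels per length. The script was tested on simulated data. Named with values was every tested member past 2-fold in any comparison, and IVL, SPRR1B and S100A8; the others are given by counts and ranges. The members and gene lists were chosen with earlier results of these data known. Alternatives were DESeq2 1.42.0 size factors, upper quartile factors, total counts, other filters and prior counts, and FPKM values. Promoters came from RefSeq GRCh38.p14, and gene order, overlaps and shared windows from GENCODE 29. SPRR2D, SPRR2E, S100A7L2 and LCE1B had no promoter entry. Genes on the other side of the complex, before its first member, are not reported here.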

Additional observations from a re-analysis of the deposited data

Results flagged for a closer look

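For 3 members called in 1 resistant line, the ratio against CAL27 had opposite signs in the resistant lines. With 1 library a line the difference was not tested, and both ratios share the CAL27 library. LCE3D was at -2.34 in CAL27/5FU and 0.37 in CAL27/OXA on the log2 scale. SPRR2D was at -1.68 and 0.013, and S100A2 at -1.33 and 0.0025. In all 3 the interval in CAL27/OXA included 0, so an opposite sign is not shown at this depth.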

How the results depend on the processing

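The labels name 1 library a line, so no difference has a replicate check here, and none could be left out. No paired analysis was possible because the lines share 1 labelled replicate number only; a second column for each line, which no label names, was not used. Calls on members did not change with DESeq2 size factors, upper quartile factors or prior counts of 0.5 and 5. None of the 19 members past 2-fold in a comparison changed sign under any alternative run, while S100A5 and S100A11 turned positive in CAL27/OXA with total counts and with FPKM values. Total counts moved the median of all genes to 0.17 in CAL27/5FU and 0.14 in CAL27/OXA against CAL27, ended the call of S100A13 and moved the split of all higher and lower genes from 1157 and 919 to 1432 and 699 in CAL27/5FU and from 894 and 1269 to 1100 and 1052 in CAL27/OXA; relative to CAL27, 20 of 26 members in place of 22 were then negative in CAL27/OXA. Without the filter, 1 member was higher in CAL27/5FU and 2 in CAL27/OXA, all under the filter. FPKM values with a pseudocount of 1 gave 11 members lower in CAL27/5FU in place of 17, 11 lower in CAL27/OXA in place of 14, and 3 higher in CAL27/OXA than in CAL27/5FU in place of 9; that count was 4 with a mean of 50 counts (3.02% of all genes kept) and 5 with the whole interval past 2-fold. With a pseudocount of 1, IVL, LCE3D, SPRR2D, SPRR2E, S100A12 and S100A13 lost their calls in CAL27/5FU and IVL, SPRR2E and FLG theirs in CAL27/OXA. In CAL27/OXA against CAL27/5FU, those of IVL, SPRR1A, SPRR1B, SPRR2A, SPRR2D, SPRR2E and FLG were lost. With 0.1, S100A13 lost its call in CAL27/5FU and FLG its calls in CAL27/OXA against either other line. A gene under 1 FPKM in both lines cannot pass 2-fold with a pseudocount of 1, so its call was bound to be lost. Against CAL27 this held for IVL, SPRR2E and FLG. In CAL27/OXA against CAL27/5FU it held for all the genes that lost their calls but SPRR2D. The cause of the other losses was not tested. The members' share was 1.47%, 0.698% and 0.621% of summed FPKM. Over all genes the higher and lower counts were 503 and 311 (CAL27/5FU), 368 and 481 (CAL27/OXA) and 165 and 437 (CAL27/OXA against CAL27/5FU) with a pseudocount of 1, 1899 and 1555, 1348 and 1925, and 981 and 1861 without the filter, and 749 and 593, 526 and 864, and 319 and 709 with the whole interval. Of the values compared other than counts of calls, mostly gene ratios but with medians among them, 424 were classed as unchanged and 101 as moved. A gene ratio was classed as moved when it fell outside its counting interval.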

Other observations

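Within some pairs of genes the balance of counts also differed between the libraries. S100A8 was 16.6% of the calprotectin counts (S100A8 plus S100A9) in CAL27 (exact 95% interval 16.3 to 16.9), 11.3% in CAL27/5FU (10.9 to 11.6) and 7.78% in CAL27/OXA (7.08 to 8.52). S100A7A was 23.2% of the S100A7 pair in CAL27 (22.3 to 24.1), 16.7% in CAL27/5FU (15.1 to 18.4) and 16.5% in CAL27/OXA (11.2 to 22.9). The last interval overlaps that of CAL27. SPRR1A was 42.3% of the SPRR1 pair in CAL27 (38.3 to 46.5) and 25% in CAL27/OXA (9.77 to 46.7), intervals that overlap. In CAL27/5FU the SPRR1 pair had 1 count. S100A2 was 37.2% of the counts of S100A2 and S100A9 together in CAL27 (36.9 to 37.5), 38.6% in CAL27/5FU (38.1 to 39.1) and 89.4% in CAL27/OXA (89.1 to 89.7). These are counts and not levels per length, and the intervals cover counting error only.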
